A study of Rattus norvegicus with 12 samples.

Results

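The miR-200 family was described here by all 9 mature miRNAs whose names trace to the hairpins of miR-200a, miR-200b, miR-200c, miR-141 and miR-429, out of 649 mature miRNAs listed over the 12 libraries. The members were rno-miR-200a-3p, rno-miR-200b-3p, rno-miR-200c-3p, rno-miR-141-3p and rno-miR-429, and the opposite arms rno-miR-200a-5p, rno-miR-200b-5p, rno-miR-200c-5p and rno-miR-141-5p. Within the family, members were taken by name, and the rule uses no measured value. All 9 were tested in each comparison. Small RNA was sequenced from the gastric mucosa of rats in 3 groups of 4 libraries, all from animals on common chow. The normal group was untreated. The model group carried chronic atrophic gastritis, in which the stomach loses its glands, after 24 weeks of the alkylating mutagen N-methyl-N'-nitro-N-nitrosoguanidine (MNNG) in drinking water at 180 µg/ml, together with gavage of 2% sodium salicylate and a cycle of 2 fed days and 1 fasted day. XLHZ rats had this whole regimen too, salicylate and fasting cycle included, and 60 days of Xianglianhuazhuo, a herbal formula. The labels give no strain, age or dose of the formula. They also leave unsaid whether each library is from its own rat, and p-values therefore reflect library-to-library spread, which may be technical.

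The miR-200 family is a hallmark of epithelial cells, including those of the stomach lining. Its main products repress the transcription factors ZEB1 and ZEB2, which in turn repress E-cadherin and the family's own genes, so that epithelial cells hold the family high and mesenchymal cells hold it low. A miRNA finds its targets mainly through its seed, bases 2 to 8. By seed, miR-200b-3p, miR-200c-3p and miR-429 form one group and miR-200a-3p and miR-141-3p the other, and the seeds of these groups differ by a single base. By genome position the split is different: miR-200b, miR-200a and miR-429 lie in one cluster and miR-200c and miR-141 in the other.

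The mature sequences below, from RefSeq with the seed in capitals, show the seed difference between the groups (miR-141-3p against miR-200c-3p) and the unlike 5p arms. RefSeq's table for the GRCr8 assembly held 6 of the 9 members. The entries for miR-200a-3p, miR-200b-3p and miR-429 were missing.
miR-141-3p: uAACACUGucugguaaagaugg
miR-200c-3p: uAAUACUGccggguaaugaug
miR-141-5p: uCCAUCUUccagugcaguguug
miR-200c-5p: cGUCUUACccagcaguguuug
miR-200a-5p: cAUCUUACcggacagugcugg
miR-200b-5p: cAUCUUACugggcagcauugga

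The 3p arms of miR-141 and miR-200c were identical at 17 of 21 positions, counted from the 5′ end, with the substitutions C4U, U9C, U11G and A17U from miR-141-3p to miR-200c-3p. Only C4U falls in the seed. The 5p arms of miR-200a and miR-200b shared their seed, and those of miR-200c and miR-141 each had another. Of the 693 mature rat miRNAs in the table, no non-member carried any of these 5 seeds. No source used here says how reads that fit more than 1 member were counted, so the levels of near-identical members are uncertain to that extent.

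The hairpins of the miR-200c and miR-141 cluster are printed because their products' share of the family set a library apart below. Capitals mark the mature arms, the 5p arm first.
Mir200c: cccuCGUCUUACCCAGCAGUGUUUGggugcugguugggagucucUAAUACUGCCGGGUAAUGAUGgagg
Mir141: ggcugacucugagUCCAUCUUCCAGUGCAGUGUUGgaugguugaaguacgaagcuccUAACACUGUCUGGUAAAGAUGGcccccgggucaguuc

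On GRCr8, Mir200c is at chr4:159209965-159210033 and Mir141 at chr4:159209525-159209618, both on the minus strand, with 346 bases between them. The deposited count tables name no genome build, so these positions describe the RefSeq sequences and not the authors' alignment. Mir429, Mir200a and Mir200b lie on chromosome 5 of the same assembly, also on the minus strand, with 950 and 689 bases between neighbours. All 3 overlap the annotated protein-coding gene Ttll10 and the lncRNA LOC106182250.

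Library totals ran from 9095260 to 11556061 miRNA counts. Levels are CPM (counts scaled to a common total) after TMM scaling over the 12 libraries, and values are mean ± SD with n = 4 libraries. Model libraries 2 and 3 stood apart: their TMM factors were 0.8354 and 0.8172, against 0.951 to 1.137 in the others, and their smooth muscle arms, from miR-143 and miR-145, summed to 403510 and 356150 CPM. In the other 10 libraries these arms summed to between 97611 and 277210 CPM. In bulk mucosa, fewer epithelial cells and less miRNA per cell cannot be told apart, and this holds for every level below. In the same way, mature miRNAs are compared as counted, and how efficiently each sequence was captured was not tested.

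In normal mucosa the family was led by miR-200a-3p, the most abundant member, at 26312 ± 2248.5 CPM. It ranked 10 among the 610 miRNAs with a count. Its libraries were at 23247, 28539, 26250 and 27212 CPM in the normal group, at 25103, 17712, 27527 and 27198 CPM in the model group, and at 29309, 24677, 28874 and 26258 CPM in the XLHZ group. Model library 2 was the lowest of the 12, and the 3 groups overlapped.

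miR-200b-3p, which shares its transcript with miR-200a, followed at 22863 ± 1962 CPM in normal mucosa, rank 11. Its normal libraries were at 19948, 24035, 24017 and 23450 CPM, its model libraries at 23150, 16371, 28734 and 24595 CPM, and its XLHZ libraries at 24576, 20977, 24599 and 22949 CPM. The model group held both the lowest library (model 2) and the highest (model 3). The normal ranges of miR-200a-3p and miR-200b-3p overlapped, although miR-200a-3p had more counts than miR-200b-3p in 11 of the 12 libraries.

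miR-429, the third product of that cluster, stood at 14708 ± 1466.8 CPM in normal mucosa, rank 16. Its libraries were at 12683, 14638, 16034 and 15476 CPM in the normal group, at 15482, 11411, 21314 and 17508 CPM in the model group, and at 15191, 13412, 17699 and 15339 CPM in the XLHZ group. Model library 3 was again the highest and model library 2 the lowest of the 12.

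miR-141-3p, from the other cluster, had 9913.4 ± 293.59 CPM in normal mucosa, rank 23. Its normal libraries lay close together, at 9837.8, 10101, 10182 and 9532.2 CPM. Its model libraries were at 10651, 6499.6, 6507.8 and 13483 CPM, and its XLHZ libraries at 12426, 11416, 11189 and 10459 CPM. Model libraries 2 and 3 were the lowest of the 12 and model library 4 the highest.

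miR-200c-3p was the least abundant main arm, at 2609.1 ± 449.05 CPM in normal mucosa, rank 54. Its libraries were at 2101.7, 2703, 2460 and 3171.6 CPM in the normal group, at 2562.4, 1846.6, 1091.2 and 2214.1 CPM in the model group, and at 3119.3, 2258.7, 2225.6 and 2822.7 CPM in the XLHZ group. Model library 3 was the lowest of the 12. In normal mucosa the ranges of miR-200b-3p, miR-429, miR-141-3p and miR-200c-3p did not overlap at any step of this order.

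The 5p arms, the strands that are usually discarded when these miRNAs are loaded, were far lower. miR-200b-5p had 327.29 ± 75.3 CPM in normal mucosa, 271.86 ± 88.2 in the model and 288.38 ± 48.4 under XLHZ. miR-141-5p had 109.48 ± 7.51, 107.55 ± 27.4 and 124.18 ± 17.1 CPM, and miR-200a-5p 69.785 ± 6.48, 68.786 ± 16.6 and 69.089 ± 6.19 CPM, in the same order of groups. miR-200c-5p was at the edge of detection, with 8 to 36 counts a library and 1.77 ± 0.873, 1.82 ± 0.238 and 2.36 ± 0.802 CPM. In normal mucosa neighbours in this order did not overlap.

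**Figure D1:**
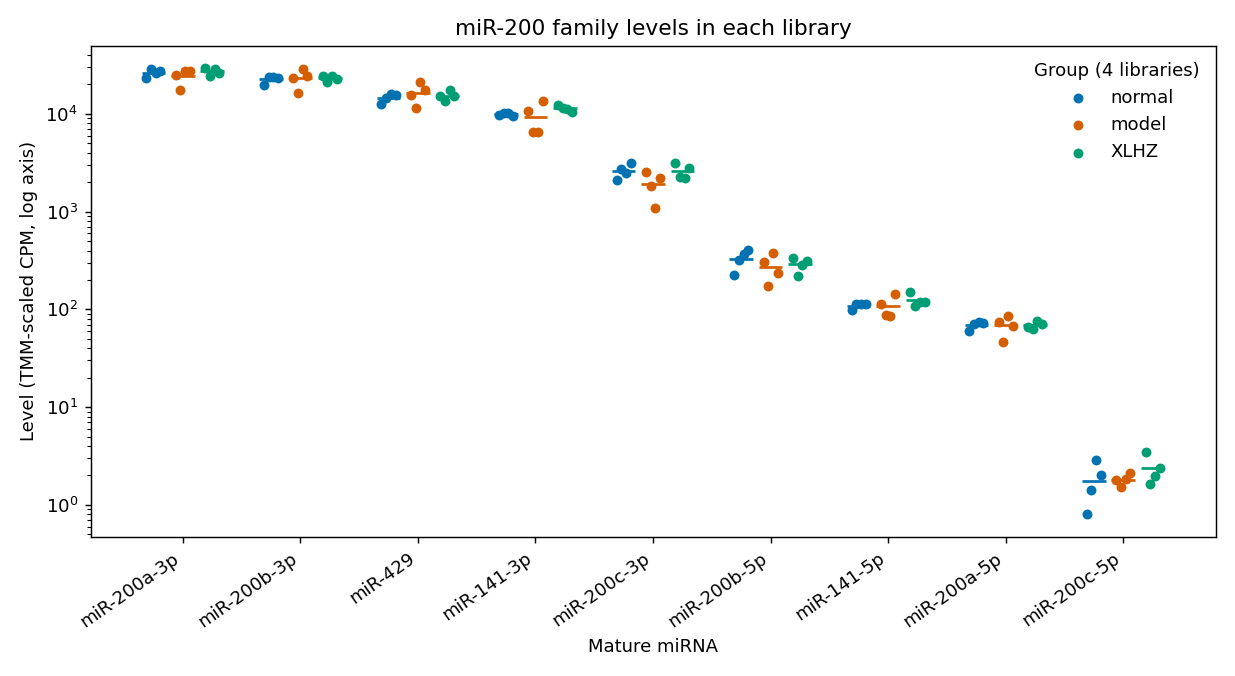
Level of each of the 9 family members in each library (TMM-scaled CPM, log axis), with 1 point per library coloured by group and a bar for the group mean. The 5 main arms lie between 1091.2 and 29309 CPM in every library, the 5p arms lie lower, and the 3 groups overlap for most members. The model points spread the widest for every member but miR-200c-5p, whose model range of 1.53 to 2.11 CPM is the narrowest.

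Summed, the family took 7.90 ± 0.777% of all miRNA counts in normal mucosa, 7.20 ± 2.06% in the model and 8.43 ± 1.12% under XLHZ. The summed level was 76913 ± 5827.6, 75690 ± 14867 and 80429 ± 5820.2 CPM. By library it ran from 68204 to 80518 CPM in normal mucosa and from 73136 to 85171 CPM under XLHZ. The model libraries were at 77442, 54147, 85725 and 85447 CPM, so that model library 2 lay below every other library and the remaining 3 lay within or just above the ranges of the other groups. The coefficient of variation of the 5 main arms was 2.96 to 17.2% in normal mucosa, 18.8 to 36.8% in the model and 7.14 to 16.8% under XLHZ. The model group was the most variable for other miRNAs too: over the 141 non-members with a mean of at least 100 CPM, the median was 14.05, 24.03 and 11.98%.

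Between model and normal mucosa no member passed the test. The comparison asks whether atrophic mucosa holds the family at another level. The largest estimate was for miR-200c-3p, with a log2 fold change of -0.44 (SE 0.25, 95% interval -1.01 to 0.13, edgeR adjusted p = 0.642). Its model mean was 1928.6 ± 630.14 CPM, the groups overlapped, and without model library 3 the log2 fold change was -0.19. miR-429 had a log2 fold change of 0.15 (interval -0.25 to 0.56, edgeR adjusted p = 0.826) and miR-200a-3p one of -0.11 (interval -0.45 to 0.22, edgeR adjusted p = 0.838). miR-141-3p had a log2 fold change of -0.10 (interval -0.62 to 0.43), which was 0.32 without model libraries 2 and 3 and -0.33 without model library 4. miR-200b-3p had one of 0.02. For the 5p arms the log2 fold changes were -0.27 for miR-200b-5p and between -0.03 and 0.03 for the other 3.

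By edgeR, 0 of 9 members were called at an adjusted p under 0.05, where 0.248% of the 403 miRNAs tested were called in all. At an unadjusted p under 0.05 the count was also 0 of 9, against 7.2% of all tested. DESeq2 also called 0 of 9 at either threshold, where its own shares over all miRNAs were 1.75% adjusted and 8.98% unadjusted. Model and normal levels did not overlap for 0 of 9 members and for 3.47% of all. The members' median log2 fold change was -0.03, with 3 above 0 and 6 below, and that over all miRNAs tested was -0.01. The members' median was 0.03 with upper-quartile scaling, 0.09 without model libraries 2 and 3, and 0.10 once the smooth muscle score entered as a covariate, so its sign was not fixed.

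Between XLHZ and model mucosa, the comparison that asks about the formula, again no member passed. miR-200c-3p had the largest estimate, at 2606.6 ± 438.05 CPM under XLHZ, with a log2 fold change of 0.41 (SE 0.25, interval -0.16 to 0.98, edgeR adjusted p = 0.729). Without model library 3 its log2 fold change was 0.18. miR-141-3p, at 11373 ± 812.52 CPM under XLHZ against 9285.4 ± 3413.7 CPM in the model, had a log2 fold change of 0.27 (SE 0.24, edgeR adjusted p = 0.819). This was -0.14 without model libraries 2 and 3, and 0.52 without model library 4. miR-200a-3p, at 27280 ± 2196.7 against 24385 ± 4576.5 CPM, had one of 0.14. miR-200b-3p stood at 23275 ± 1715.9 and 23213 ± 5138.5 CPM, a log2 fold change of -0.01, and miR-429 at 15410 ± 1759.5 and 16429 ± 4127.3 CPM, one of -0.11. The log2 fold changes of the 5p arms ran from -0.01 for miR-200a-5p to 0.35 for miR-200c-5p, whose counts are few.

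In this comparison edgeR called 0 of 9 members, against 0.249% of the 402 miRNAs tested. At an unadjusted p under 0.05 it was 0 of 9 against 4.23%, and DESeq2 called 0 of 9 at either threshold, against 0.251% of all adjusted and 6.78% unadjusted. Levels did not overlap for 0 of 9 members and for 1.25% of all. The members' median log2 fold change was 0.14, with 6 above 0 and 3 below, beside 0.01 over all tested. It was -0.09 without model libraries 2 and 3 and -0.05 once that score entered as a covariate. This comparison and the one above share the model libraries.

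Between XLHZ and normal mucosa, which asks how far XLHZ mucosa is from that of untreated rats, no member passed either. miR-141-3p was the 1 member whose groups did not overlap: its 4 XLHZ libraries began at 10459 CPM and its 4 normal libraries ended at 10182 CPM. Its log2 fold change was 0.17 (SE 0.07, interval 0.01 to 0.32), with an unadjusted p of 0.0353 by edgeR and an adjusted p of 0.493, so it did not pass. Its other arm, miR-141-5p, had a log2 fold change of 0.15 (edgeR adjusted p = 0.730) with overlapping groups. The other main arms had log2 fold changes between -0.03 for miR-200c-3p and 0.03 for miR-429. miR-200b-5p had one of -0.21 and miR-200c-5p one of 0.37.

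Here edgeR called 0 of 9 members against 1.5% of the 401 miRNAs tested, and DESeq2 called 0 of 9 against 1.75%. Unadjusted, 1 of 9 members by edgeR and 0 by DESeq2 had a p under 0.05, against 8.73% and 8.23% of all. Levels did not overlap for 1 of 9 members and for 6.23% of all, so 1 member is near that background. The members' median log2 fold change was 0.02, with 5 above 0 and 4 below, beside 0.00 over all tested.

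**Figure D2:**
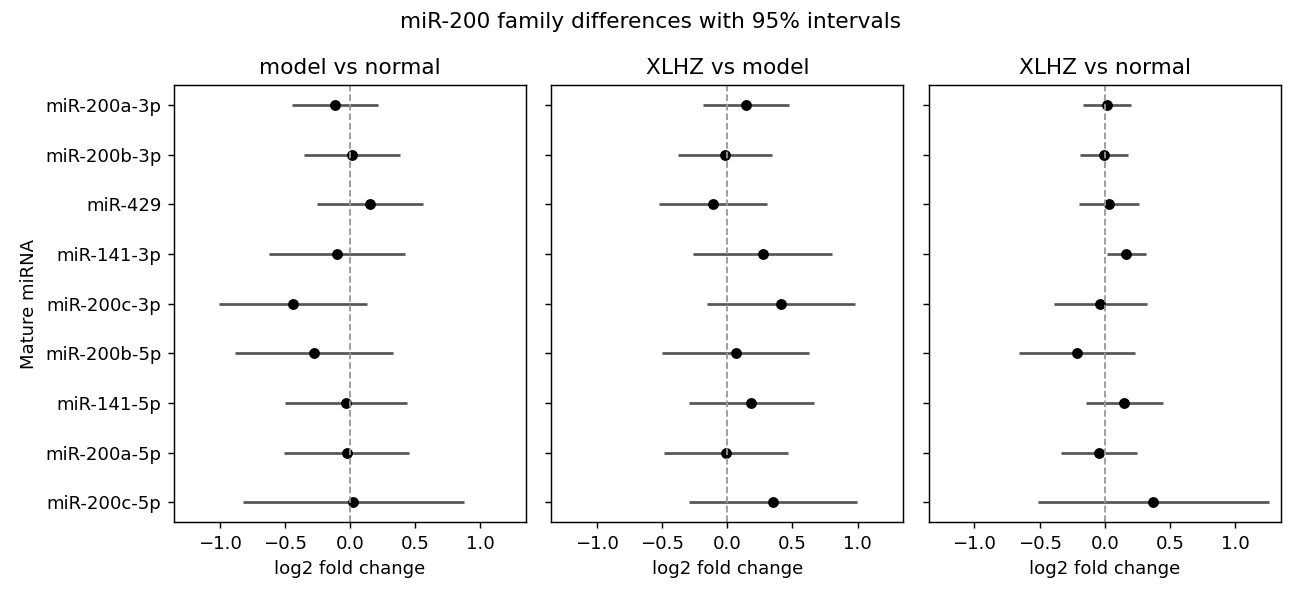
Log2 fold change of each member in the 3 comparisons (points) with its 95% interval from the edgeR fit (bars), 1 panel per comparison, and a dashed line at 0. Among the main arms the intervals are widest for miR-200c-3p and miR-141-3p in both comparisons with the model group, and that of miR-141-3p between XLHZ and normal, 0.01 to 0.32, lies just above 0.

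The balance between the clusters set model library 3 apart. In normal mucosa the arms of miR-200c and miR-141 made up 17.7, 16.0, 16.0 and 16.1% of the family's counts. In the XLHZ libraries they made up 18.4, 18.8, 15.9 and 17.1%. In the model libraries the shares were 17.2, 15.6, 8.97 and 18.5%, so that 1 library lay well below all others. Without it the model mean was 17.1 ± 1.48% (n = 3), inside the ranges of the other groups.

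In that library both ends of the ratio moved: miR-200b-3p and miR-429 had their highest levels of the 12 libraries while miR-200c-3p had its lowest. The ratio of miR-200c-3p to miR-200b-3p counts was 0.0380 there and 0.0900 to 0.135 in the other 11 libraries. Model library 3 also differed in other miRNAs. miR-375-3p, an endocrine and gastric epithelial miRNA, had 5229.3 CPM there against 11252 to 13077 CPM in the other model libraries. The intestinal-type miR-192-5p and miR-194-5p had their highest model levels there, 11963 and 10868 CPM. The inflammation-induced miR-146a-5p had 6278.1 CPM there against 1254 to 1381.3 CPM in the other model libraries. The leukocyte miRNAs, a list that includes miR-146a-5p, summed to 12286 CPM against 4469.1 to 5832.1 CPM. On that list miR-142-3p had 3520.3 CPM against 1491.3 to 2243.4 CPM, and miR-150-5p 868.98 CPM against 698.19 to 947.59 CPM. XLHZ library 4 had a leukocyte sum of 11289 CPM, with 17.1% of its family counts from miR-200c and miR-141. The part of all these miRNAs in the cluster balance was not tested.

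**Figure D3:**
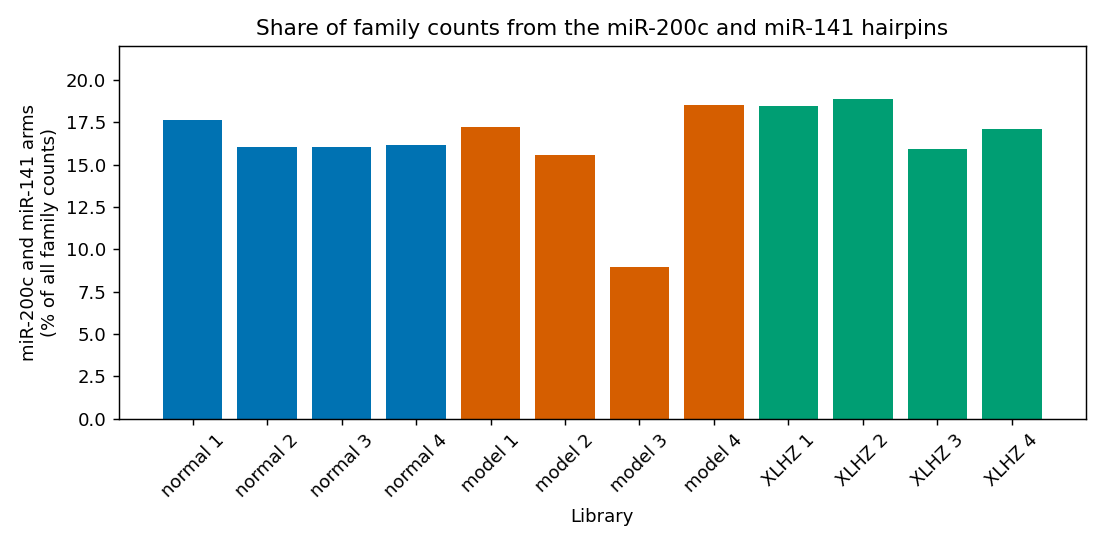
Share of the family's counts that came from the arms of miR-200c and miR-141, in percent, with 1 bar per library coloured by group and the axis starting at 0. Model library 3 stands at 8.97%, and the other 11 bars lie between 15.6 and 18.8%.

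Grouped by seed, miR-200b-3p, miR-200c-3p and miR-429 together made up 52.2 ± 1.23% of the family in normal mucosa, 54.9 ± 3.40% in the model and 51.3 ± 1.26% under XLHZ. Nearly all of the rest was miR-200a-3p and miR-141-3p. Model library 3 was again the farthest, at 59.7%, and the other model libraries lay between 51.9 and 54.7%.

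Ratios of counts between members need no scaling, and 5 of them were computed. They were chosen after the levels were seen, so they are a description with no test. The groups did not overlap in 2 of the 15 looks (5 ratios by 3 comparisons), and how often this occurs for ratios of other miRNAs was not computed. Within the chromosome 5 cluster there were 0.643 ± 0.0265 counts of miR-429 per count of miR-200b-3p in normal mucosa, 0.705 ± 0.0304 in the model and 0.661 ± 0.0439 under XLHZ. The lowest model library (0.669) lay just above the highest normal one (0.668), and the XLHZ libraries, 0.618 to 0.720, overlapped both. Counts of miR-200a-3p per count of miR-200b-3p were 1.15 ± 0.0408, 1.06 ± 0.0672 and 1.17 ± 0.0201. The 4 XLHZ libraries (1.14 to 1.19) lay above the 4 model libraries (0.958 to 1.11), and the normal libraries (1.09 to 1.19) overlapped both. In the other 3 ratios all groups overlapped. Counts of miR-200c-3p per count of miR-141-3p, within the chromosome 4 cluster, were 0.264 ± 0.0509, 0.214 ± 0.0584 and 0.229 ± 0.0367 in normal, model and XLHZ mucosa. Between the clusters, counts of miR-141-3p per count of miR-200a-3p were 0.379 ± 0.0341, 0.381 ± 0.110 and 0.418 ± 0.0334, and those of miR-200c-3p per count of miR-200b-3p were 0.114 ± 0.0149, 0.0879 ± 0.0348 and 0.112 ± 0.0166.

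The 3p arm dominated in each of the 4 hairpins with both arms listed. The 5p arm made up 0.222 to 0.313% of the counts of miR-200a over the 12 libraries, 0.948 to 1.68% of miR-200b, 0.0380 to 0.166% of miR-200c and 0.946 to 1.32% of miR-141. In every library miR-200b and miR-141 gave relatively more 5p arm than miR-200a and miR-200c throughout. The 4 hairpins were compared in 3 comparisons, 12 exact two-sided permutation tests in all, and with 4 libraries against 4 the smallest possible p is 0.0286. A lone test at that p would have an adjusted p of 0.343, and 7 of the 12 would have to reach it to pass 0.05, so these tests say little about whether the arm shares differed. The lowest p was 0.114 (exact permutation test, adjusted p = 0.539), for miR-200b, whose 5p share was 1.14 ± 0.178% in the model and 1.40 ± 0.241% in normal mucosa.

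Across the 12 libraries the levels moved together within the chromosome 5 cluster. Pearson correlations of log2 levels, given as a description, ran from 0.66 to 0.93 over the 10 pairs among the arms of miR-200b, miR-200a and miR-429. For miR-141-3p and miR-200c-3p the correlation was 0.67, and for miR-141-3p and miR-141-5p, the arms of 1 hairpin, 0.91. Over the 20 pairs between the clusters the correlations ran from -0.34, for miR-200c-3p with miR-429, to 0.61. Levels of 1 library share its scaling, and 2 libraries carried much of the contrast. Without model libraries 2 and 3 the chromosome 5 pairs ran from 0.33 to 0.88 and the pairs between clusters from -0.43 to 0.81, and miR-141-3p with miR-200c-3p came to -0.20.

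**Figure D4:**
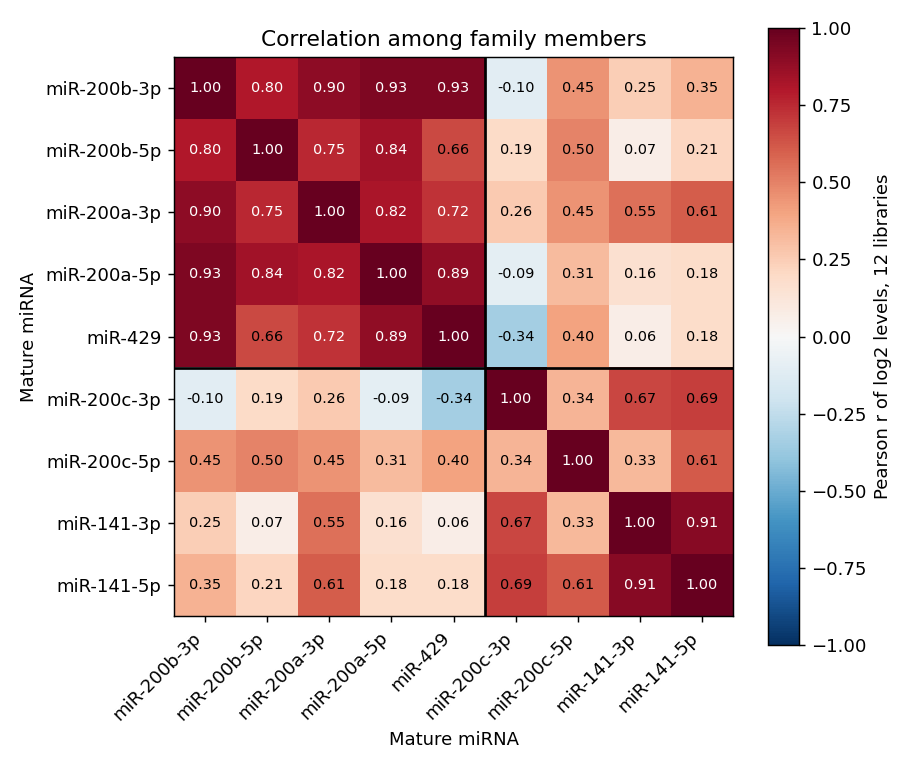
Pearson correlation of log2 levels over the 12 libraries for each pair of members, as a coloured grid with 1 row and 1 column per member and a line between the clusters. The block of miR-200b, miR-200a and miR-429 arms is at 0.66 or above, and the pairs between the clusters lie between -0.34 and 0.61.

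The miRNAs whose pattern was most like the family's were sought among the 141 non-members with a mean of at least 100 CPM, by correlation with the mean log2 level of the 5 main arms over 12 libraries. The highest were miR-126a-3p, an endothelial miRNA (r = 0.91, rho = 0.91), miR-183-5p (0.89, 0.61), miR-3559-5p (0.87, 0.87), miR-182 (0.85, 0.55) and miR-32-5p (0.84, 0.70), each given as Pearson's r and then Spearman's rho. miR-183-5p and miR-182 come from a cluster known in sensory and other epithelia. The lowest were miR-10a-5p (-0.93, -0.90), miR-22-5p (-0.91, -0.92) and miR-100-5p (-0.90, -0.89). Without model libraries 2 and 3, the farthest from the median, the 5 highest fell to between 0.47 and 0.67 and the 3 lowest lay between -0.88 and -0.77. With library totals alone in place of TMM, miR-22-5p came to -0.41.

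The family's level ran opposite to the muscle miRNAs of the same libraries. Its mean log2 level was highest in XLHZ library 1, at 13.7, where the miR-143 and miR-145 arms had the lowest sum, 97611 CPM. It was lowest in model library 2, at 13.0, where that sum was the highest, 403510 CPM. Over 12 libraries the correlation with the smooth muscle arms was r = -0.85 (rho = -0.87), and without these same 2 libraries it was -0.76. The summed family level did not follow this in model library 3. There it was the highest of the 12, 85725 CPM, with a smooth muscle sum of 356150 CPM and a mean log2 level of 13.3. Each list's value without the 2 libraries farthest from that list's median follows in turn. Against the skeletal and cardiac muscle miRNAs r was -0.84 and then -0.71, against the endothelial miRNAs 0.88 and 0.76, and against the erythroid miRNAs 0.74 and 0.78. The remaining lists moved further. The nerve relation weakened from -0.89 to -0.58, while the leukocyte miRNAs went from 0.14 to 0.54 and the mesenchymal miRNAs from 0.11 to -0.72. Those values depend on which libraries are included. Of the tested miRNAs on these lists, 1 of 4 erythroid miRNAs rose under XLHZ against normal by edgeR, where 1.5% of all miRNAs tested were called. It was miR-144-5p, of low level, at 27.5 ± 11.5 CPM under XLHZ and 7.22 ± 1.77 CPM in normal mucosa. The other arm of its hairpin, miR-144-3p, had a log2 fold change of -0.18, the 1 of the 4 below 0. No miRNA on these lists passed in the other 2 comparisons, where edgeR called 0.248% (model against normal) and 0.249% (XLHZ against model) of all. All levels of 1 library share its total and its TMM factor. miR-143-3p alone averaged 242590 CPM in the model and 157360 CPM in normal mucosa. Its part in the members' differences was not tested beyond the fit with the smooth muscle score.

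**Figure D5:**
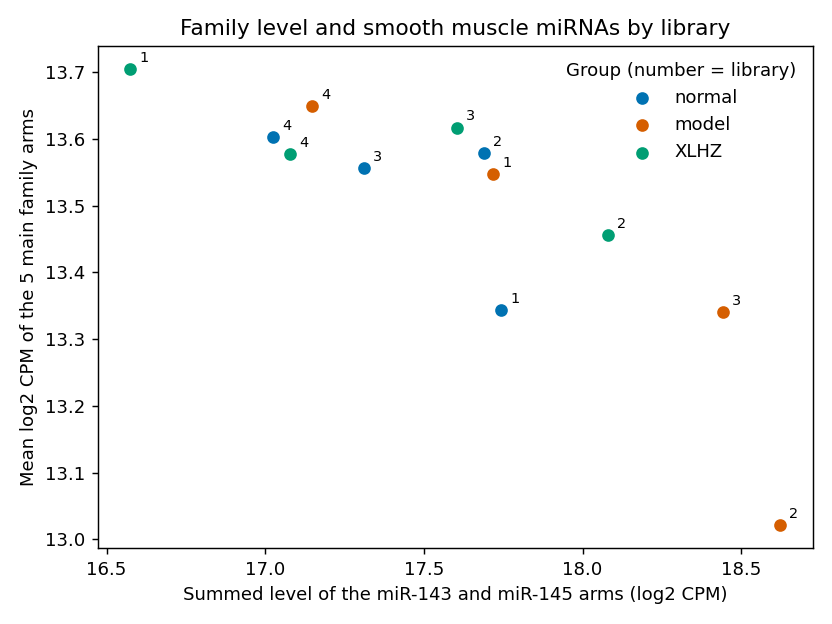
Mean log2 CPM of the 5 main family arms against the log2 of the summed miR-143 and miR-145 arms, with 1 point per library coloured by group. The points fall from XLHZ library 1 at the upper left to model library 2 at the lower right, with r = -0.85 over 12 libraries.

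Other miRNAs of epithelial identity were read beside the family from a list of 12 hairpins with 20 arms, among them miR-205, miR-203a, miR-183, miR-192, miR-194, miR-375 and miR-148a. Of these, 16 were tested, and by edgeR and by DESeq2 0 rose and 0 fell in any of the 3 comparisons. Over all miRNAs tested, edgeR called 0.248% in the model against normal, 0.249% in XLHZ against the model and 1.5% in XLHZ against normal. DESeq2 called 1.75, 0.251 and 1.75%, in the same order. At an unadjusted p under 0.05 both tools had 2 of the 16 in the model against normal. They had 0 of 16 under XLHZ against the model and 3 of 16 under XLHZ against normal. The shares over all miRNAs were 7.2, 4.23 and 8.73% by edgeR, and 8.98, 6.78 and 8.23% by DESeq2. For the listed miRNAs the median log2 fold change was -0.09 in the model against normal (7 above 0 and 9 below). Under XLHZ against the model their median was 0.07, and under XLHZ against normal 0.05. Their sum ran from 47982 to 52811 CPM over the normal libraries, from 34165 to 45792 CPM over the model libraries and from 43081 to 49155 CPM under XLHZ, so the model libraries lay below the normal ones in this sum. Much of that gap was miR-375-3p, whose normal level was 16898 ± 3140.1 CPM and whose model level was 10601 ± 3672 CPM (edgeR adjusted p = 0.605). Other arms on the list also had log2 fold changes below 0: miR-148a-3p -0.46, miR-205 -0.58, miR-203a-3p -0.61 and miR-203b-3p -0.96. In contrast, miR-192-5p and miR-194-5p had higher model means. The family's level correlated with this list at r = 0.80 (rho = 0.55), and at 0.39 without model library 2 and normal library 2. The labelled tissue is mucosa, and its epithelial miRNAs were present in every library beside high levels of the smooth muscle miR-143.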

How the data were processed

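Small RNA libraries were made from total RNA of gastric mucosa with a QIAseq kit, per the labels' protocols. Per the submitters' processing notes, Bowtie and DESeq were used in versions the notes leave out. No source used here gives the genome build, the counting rule or the use of molecular identifiers. The authors deposited 2 tables of raw counts per mature miRNA, one with normal and model libraries (639 miRNAs) and one with model and XLHZ libraries (632 miRNAs). The CPM columns that the authors deposited match the counts over their column totals within 5.0e-05 and were not used further. The tables shared 622 miRNAs, and the model counts were equal for 621. The exception, miR-20b-3p, was left out of the joined table, and the 17 and 10 miRNAs found in 1 table were set to 0 where unlisted. Sample titles gave the groups and replicate numbers. No pair of libraries within a group matched to within sampling noise (lowest chi-square per degree of freedom 172).

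For each comparison its 8 libraries and all miRNAs were fitted with edgeR 4.0.16 in R 4.3.3: the quasi-likelihood test, TMM factors, the filterByExpr filter (minimum count 10) and Benjamini-Hochberg adjustment at 0.05. Standard errors are log2 fold changes over the root of F. Correlations used log2 of CPM plus 0.5. Named miRNAs are all 9 members, the 5 non-members most like and the 3 least like the family level, and marker miRNAs. The other marker lists covered smooth, skeletal and cardiac muscle, mesenchyme, leukocytes, endothelium, erythroid cells and nerves. The 9 members and the lists were chosen with earlier results of these data known. Alternatives were other scalings, other count filters, DESeq2 1.42.0, 1 fit of 12 libraries, the replicate number as a block, the smooth muscle score (mean log2 CPM of the miR-143 and miR-145 arms) as a covariate, and libraries left out. The procedure was tested on simulated counts. The changes put into them were larger than any member's estimate here, so detection of changes of the members' size was not tested.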

Additional observations from a re-analysis of the deposited data

Results flagged for a closer look

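In groups of 4, a library was singled out when its gap to the nearest other exceeded Dixon's critical share of the group's range. Of 105 groups of values 9 met this, and chance alone gives about 1 in 20 for separate values. The 9 are not separate: the 2 cluster shares are complements, and the sums of normal library 1 share members, so their count cannot be set against that rate. Most concern normal library 1. It was the lowest normal library for miR-141-5p, at 98.255 CPM against 112.62 to 114.04 CPM, and for miR-200b-3p, at 19948 CPM against 23450 to 24035 CPM. It was also the lowest for the whole family, at 68204 CPM against 79431 to 80518 CPM, for the chromosome 5 cluster, at 56165 CPM against 66613 to 67599 CPM, and for the seed group of miR-200b-3p, miR-200c-3p and miR-429, at 34733 CPM against 41377 to 42511 CPM. Its family counts came to 82.349% from the chromosome 5 cluster, against 83.862 to 83.956%, and to 17.651% from miR-200c and miR-141, against 16.044 to 16.138%.

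Model library 3 had 0.95798 counts of miR-200a-3p per count of miR-200b-3p, against 1.0819 to 1.1058 in the other model libraries. Its share of family counts from miR-200c and miR-141, 8.97%, was not singled out by this rule. XLHZ library 1 had the highest summed level of the miR-200c and miR-141 arms, 15698 CPM against 13403 to 13785 CPM.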

How the results depend on the processing

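No member passed an adjusted p of 0.05 in any of 501 alternative fits over 27 pairs of member and comparison, where the smallest adjusted p was 0.3074. Direction was kept in 415 fits and turned in 86, and 10 of the 27 pairs kept it throughout. The largest turned value was 0.317, for miR-141-3p in the model against normal without model libraries 2 and 3. The cause of the turns was not tested. Library totals alone moved the median of all miRNAs by -0.12 (model against normal) and 0.17 (XLHZ against model), and other scalings moved it by under 0.1. Depth limits miR-200c-5p, with 8 to 36 counts a library. For the others the spread between libraries sets the precision.

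In the model against normal, the smooth muscle score as a covariate gave 0.154 for miR-141-3p, 0.185 for miR-141-5p and 0.058 for miR-200a-5p. Without model libraries 2 and 3 these were 0.317, 0.269 and 0.052, with 0.022 for miR-200a-3p. Upper-quartile factors gave 0.038 for miR-141-5p and 0.028 for miR-200a-5p, and for the latter RLE factors gave 0.0009529 and DESeq2 0.0009927. Library totals alone gave -0.098 for miR-200b-3p and -0.092 for miR-200c-5p, and totals without the 5 leading miRNAs -0.033 and -0.011.

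In XLHZ against the model, leaving out model libraries 2 and 3 gave -0.138 for miR-141-3p and -0.107 for miR-141-5p. The smooth muscle score gave -0.05 for miR-141-5p and -0.056 for miR-200b-5p. For miR-200a-5p and miR-200b-3p the values were 0.00133 and 0.00379 with upper-quartile factors, 0.155 and 0.154 with library totals alone, 0.068 and 0.065 without the 5 leading miRNAs, 0.039 and 0.035 with no count filter, and 0.003413 and 0.0003846 with 12 libraries in 1 fit. Library totals alone also gave 0.059 for miR-429.

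In XLHZ against normal, upper-quartile factors gave 0.032 for miR-200a-5p, 0.078 for miR-200b-3p and 0.06 for miR-200c-3p. Library totals alone gave 0.009912, 0.056 and 0.035 for the same. Totals without the 5 leading miRNAs gave 0.032 for miR-200b-3p and 0.006253 for miR-200c-3p, and 12 libraries in 1 fit gave 0.027 for miR-200b-3p.

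Leaving out 1 library at a time, ranges that crossed 0 in the model against normal were -0.33 to 0.094 for miR-141-3p, -0.197 to 0.122 for miR-141-5p, -0.168 to 0.016 for miR-200a-3p, -0.103 to 0.124 for miR-200a-5p, -0.048 to 0.156 for miR-200b-3p and -0.201 to 0.391 for miR-200c-5p. In XLHZ against the model they were -0.152 to 0.081 for miR-200a-5p, -0.146 to 0.066 for miR-200b-3p, -0.094 to 0.227 for miR-200b-5p and -0.244 to 0.00312 for miR-429. In XLHZ against normal they were -0.026 to 0.065 for miR-200a-3p, -0.102 to 0.035 for miR-200a-5p, -0.057 to 0.064 for miR-200b-3p, -0.113 to 0.089 for miR-200c-3p and -0.022 to 0.128 for miR-429. Of 108 alternatives for the arm shares 3 turned, all with 1 library left out: the difference in percentage points ran from -0.0258 to 0.00624 for miR-200c in XLHZ against the model, and from -0.0490 to 0.0301 for miR-141 in XLHZ against normal. With 3 libraries against 4 the exact permutation test as run, which doubles the smaller tail, has a smallest p of 0.0571.

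The replicate numbers of the titles were tried as a replicate block, which called 0 members in each comparison. Same-numbered libraries correlated at -0.445 to 0.608 once each group's mean was subtracted from the log2 levels. This was over the miRNAs with a mean of at least 100 CPM. The correlation was over 0.1 for 3 of 4 numbers in the model against normal, 3 of 4 in XLHZ against the model and 2 of 4 in XLHZ against normal. A number correlated best with itself for 3, 2 and 1 of 4. As at least 1 pair in each comparison was under 0.1 and no label ties the numbers, the libraries were not treated as pairs. The block gave -0.006059 for miR-200b-3p in the model against normal, and 0.017 for miR-200a-5p and 0.011 for miR-200b-3p in XLHZ against the model. Without miR-143-3p in the total, the family's share was 9.396% in normal mucosa, 9.095% in the model and 9.978% under XLHZ. Without the 5 leading miRNAs it was 12.65, 12.04 and 13.28% in normal, model and XLHZ mucosa.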
